A study of Homo sapiens with 8 samples.

Results

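The zinc finger genes of chromosome 19 were taken as every row of the expression table that lies on chromosome 19 and whose symbol is ZNF followed by a number and at most 1 letter. The rule found 236 genes among 18787 gene symbols. It used the position and the name of a gene and no expression value. The same symbol pattern found 265 genes on other chromosomes, and 1119 genes of chromosome 19 fell outside it.

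Expression was measured by RNA sequencing in T98 and U87, established human glioblastoma lines, 72 h after transfection of siRNA with Lipofectamine RNAiMAX. The 4 groups were T98 with LKB1 siRNA, T98 with control siRNA, U87 with LKB1 siRNA and U87 with control siRNA, with 2 libraries each. LKB1, encoded by STK11, is a serine/threonine kinase that activates AMPK and its relatives. In each group 1 library was run on sequencing lane 2, and the other on lane 4 in T98 and on lane 5 in U87. No label says whether the duplicates were separate transfections, so the p-values cover the spread between the libraries at hand only, and that spread may be technical. Each line is a single culture model, so a difference between T98 and U87 describes these lines only.

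Most of these genes encode proteins with arrays of C2H2 zinc fingers that read DNA sequence, and many carry a KRAB domain at the other end. The KRAB domain binds TRIM28 (KAP1), which brings in the histone methyltransferase SETDB1, HP1 proteins and histone deacetylases. Many of the proteins silence transposable elements: in human cells ZNF91 acts on SVA elements and ZNF93 on LINE-1 elements. The genes arose largely by tandem duplication and stand in clusters along chromosome 19, where their bodies are often packed in H3K9me3 chromatin. Close copies share sequence, so reads of some members can be assigned to a neighbour.

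Values are the authors' normalised read counts, which are moved to a common library size and are not divided by gene length. Where 2 values of a group are given, that of lane 2 comes first. The reads behind them totalled 25223747 to 38019176 per library. STK11 checked the labels: its values were 339.9 and 587.6 in T98 with LKB1 siRNA against 1999 and 2041 in T98 controls, and 360.7 and 384.6 in U87 with LKB1 siRNA against 2445 and 2041 in U87 controls. VIM and CD44, mesenchymal and glioma markers, stood at 34020 or more in every library, while GFAP was at most 8.60 in T98 and at most 50.7 in U87. Of the other glial and progenitor markers, OLIG2 was at 25.5 to 70.4 over the 8 libraries, and NES at 16.2 to 123 in T98 and 1361 to 2073 in U87. SOX2, S100B and AQP4 were at or under 3.48 in every library, and EGFR was at 2881 to 9855. Of 14 markers of other cells, 10 were under 100 in every library, with PTPRC, AIF1, MOG and RBFOX3 under 10. The neuronal marker SNAP25 was at 85.5 to 897.6 in T98 and 576.5 to 2386 in U87. SYT1, another neuronal marker, was at 2.73 to 7.85 in T98 and 117.2 to 150.9 in U87. The 14 summed to 3559 to 4896 in T98 and to 13116 to 25557 in U87. CD68 made up most of the U87 sum, at 538.0 to 1125 in T98 and 12020 to 22934 in U87, and KRT18 most of the T98 sum. Their part in the results was not tested.

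A gene was tested where its value reached 10 in at least 2 libraries, and 224 of the 236 members were. A gene was called where limma's test, Benjamini-Hochberg adjusted over all 14282 genes tested, gave a p under 0.05. Far more of the members were in use in T98 than in U87. Between 214 and 224 members reached a value of 10 in the 4 T98 libraries, against 138 to 151 in the 4 U87 libraries. Their summed value was 61936 and 64936 in T98 with LKB1 siRNA, 66574 and 61177 in T98 controls, 40340 and 40341 in U87 with LKB1 siRNA, and 37558 and 38709 in U87 controls. The sums of the lines did not overlap, and within a line the siRNA groups lay close together. How many of all genes reached a value of 10 in each library was not counted. In bulk RNA, fewer cells that use a gene and less RNA per cell cannot be told apart.

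**Figure D1:**
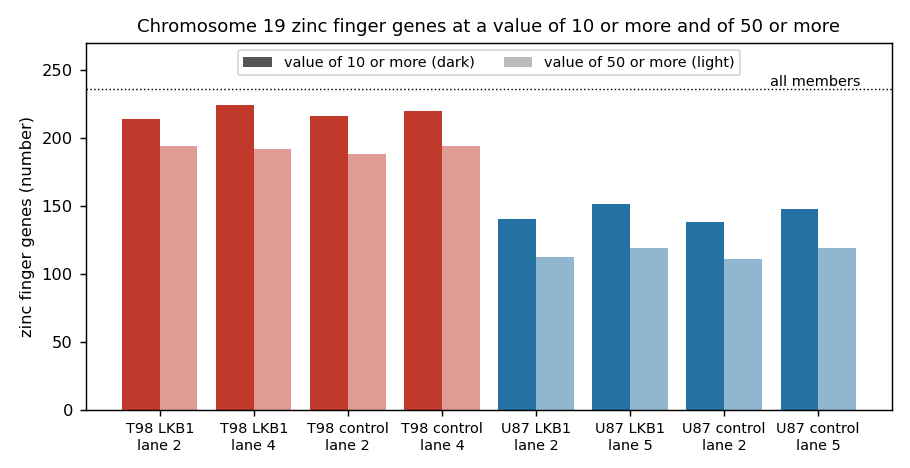
Number of chromosome 19 zinc finger genes with a value of 10 or more (dark bars) and of 50 or more (light bars) in each of the 8 libraries; T98 libraries are red, U87 libraries blue, and the dotted line is all 236 members. Every T98 library holds at least 214 members at 10 or more and no U87 library holds more than 151.

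In control libraries of T98 against control libraries of U87, 121 of the 224 tested members were called (54.0%), 112 of them higher and 9 lower in T98. Over all genes tested 37.7% were called, 18.3% higher and 19.5% lower in T98. The median log2 difference, T98 minus U87, was 1.35 over the members and -0.01 over all genes tested. Zinc finger genes of the same name pattern on other chromosomes had a median difference of 0.42, with 62 higher and 23 lower of 248 tested. The other genes of chromosome 19 leaned the other way, with a median difference of -0.23, 100 higher and 174 lower of 817 tested. Members are expressed at modest levels, so they were also set beside 1796 genes, members among them, whose mean value lay between the members' quartiles. Of those genes 45.9% were called, 352 higher and 472 lower in T98, with a median difference of -0.16.

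The difference was often close to a switch. Both T98 controls were at 50 or more and both U87 controls under 10 for 47 members, and no member showed the opposite. A further 102 members were at 50 or more in all 4 control libraries, 78 lay between these limits, and 9 were under 10 in all 4. Of the 112 members called higher, 85 differed by more than 3 on the log2 scale, and for 108 every T98 library of either siRNA lay above every U87 library. The exceptions were ZNF562, ZNF302, ZNF587 and ZNF814, whose groups overlapped. Among all tested members, called or not, 130 lay wholly higher in T98 in this way and 17 wholly lower. How many genes outside the members met these limits, passed 3 on the log2 scale or were separated like this was not counted. None of these is therefore known to be particular to the members. In U87 controls 24 members had no read at all, against 4 in T98 controls, and genes outside the members were not counted. Of the 24, the 11 members ZNF737, ZNF729, ZNF99, ZNF728, ZNF850, ZNF540, ZNF781, ZNF582, ZNF471, ZNF154 and ZNF606 had no read in any of the 4 U87 libraries.

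The members fell into 16 clusters when neighbouring starts over 1 Mb apart were separated, and 9 clusters of 5 or more members held 225 of the 236. Members higher in T98 stood mainly in 3 of these, picked out here after their values were seen. In the cluster from ZNF101 to ZNF254 (hg19, chr19:19779663-24312654), 22 of 27 tested members were called higher in T98 and none lower, with a median difference of 4.59. In the cluster from ZNF565 to ZNF573 (chr19:36673187-38270230), 23 of 26 were called higher and none lower, with a median difference of 5.53. In the cluster from ZNF175 to ZNF331 (chr19:52074531-54083523), 22 of 33 were called higher and none lower, with a median difference of 5.19. Together these clusters held 67 of the 112 members called higher and 39 of the 47 members at 50 or more in T98 alone. Outside them 45 of 138 tested members were called higher and 9 lower, with a median difference of 0.55.

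The other clusters varied. From ZNF653 to ZNF791, 13 of 24 tested members were called higher and 1 lower in T98 (median difference 2.37). From ZNF557 to ZNF846, 5 of 15 were called higher and none lower (0.52), and from ZNF302 to ZNF792, 3 of 5 higher and none lower (1.11). These lay below the 3 clusters above in their medians. From ZNF575 to ZNF296, 4 of 23 were called higher and 3 lower (0.49), and from ZNF628 to ZNF446, near the end of the long arm, 19 of 57 higher and 3 lower (0.79). None of the 4 tested members from ZNF554 to ZNF77, near the end of the short arm, was called, and ZNF77, the member that differed most there, had a difference of -0.95 ± 0.33 (SE, adjusted p = 0.0543).

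**Figure D2:**
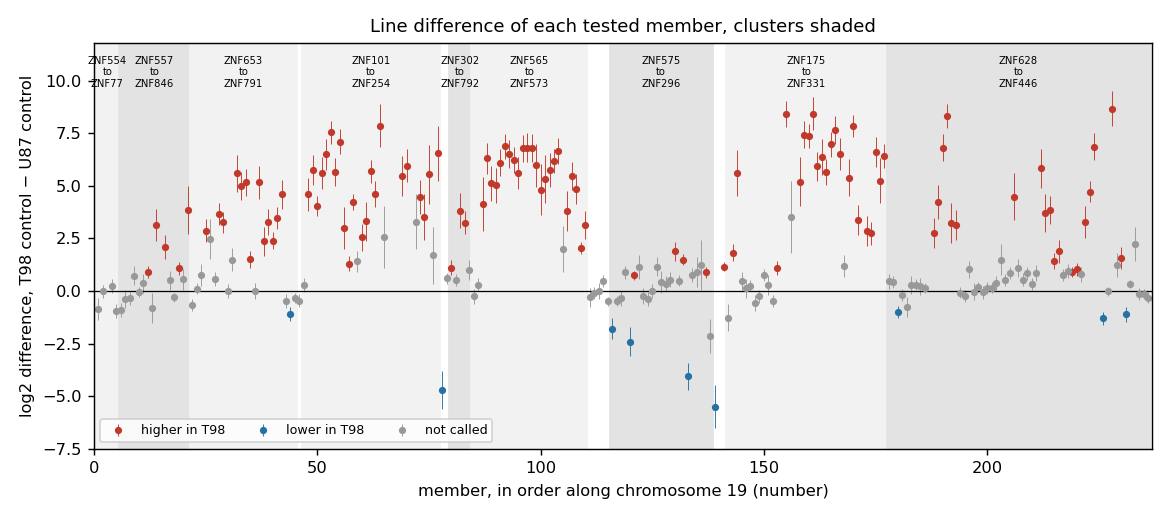
Log2 difference of control libraries, T98 minus U87, for each tested member in its order along chromosome 19 (error bars, SE); red members were called higher in T98, blue lower, grey not called, and shaded bands mark the 9 clusters of 5 or more members. The bands starting at ZNF101, ZNF565 and ZNF175 hold mostly red points, with medians of 4.59, 5.53 and 5.19, while the band from ZNF575 to ZNF296 has a median of 0.49 and spreads over -4.06 to 1.88.

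The cluster from ZNF565 to ZNF573 showed the switch most fully. From ZNF566 to ZNF570, 18 neighbouring members in a row over 1.04 Mb were called higher in T98. All 23 members called in the cluster had every T98 library above every U87 library, a separation not counted for genes outside the members. ZNF567, the member with the largest difference there, had values of 141.4 and 177.9 in T98 with LKB1 siRNA and 269.6 and 202.2 in T98 controls. In U87 the same gene gave 1 read over both LKB1 siRNA libraries and 2 reads over both controls. Its line difference was 6.87 ± 0.60 on the log2 scale (SE, adjusted p = 2.04e-04). ZNF568, whose mouse counterpart silences a placental Igf2 transcript, had values of 146.1 and 174.7 in T98 controls and 1 read over both U87 controls, a difference of 6.81 ± 0.68 (adjusted p = 3.49e-04). ZNF850 had values of 125.6 and 64.5 in T98 controls and no read in any U87 library, which put it at least 63.4-fold higher in T98 when U87 was set to 3 reads over its 2 controls. ZNF585A and ZNF585B, close copies whose reads may be shared, differed by 5.97 ± 1.02 and 4.81 ± 1.22 between the lines.

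The first members of that cluster were expressed in both lines and were not called. ZNF565 had values of 92.7 and 78.8 in T98 controls and 88.7 and 118.4 in U87 controls (difference -0.26 ± 0.36, adjusted p = 0.593). ZNF146, a protein made almost entirely of zinc fingers and without a KRAB domain, had values of 4328 and 2791 in T98 controls and 2840 and 2851 in U87 controls (0.29 ± 0.31, adjusted p = 0.494). Their groups overlapped, and the next member along the chromosome, ZNF566, was the first of the row called higher. Near the other end of the cluster ZNF607 was used in both lines but was higher in T98, with values of 292.1 and 356.0 in T98 controls and 77.1 and 79.2 in U87 controls (2.03 ± 0.30, adjusted p = 0.00191). ZNF793 was the other member not called, with 24 reads over T98 controls and 8 over U87 controls.

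**Figure D3:**
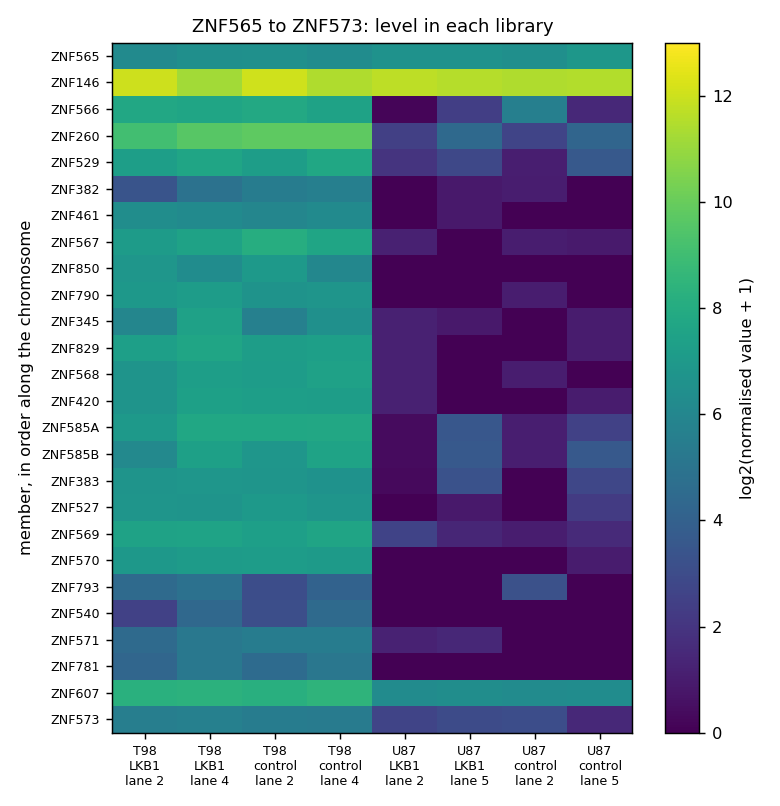
Levels, as log2 of the normalised value plus 1, of the 26 members from ZNF565 to ZNF573 (rows, in order along the chromosome) in the 8 libraries (columns). ZNF565 and ZNF146 are alike in all columns, ZNF607 is present in both lines, and most other rows are green in the 4 T98 libraries and dark in the 4 U87 libraries.

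In the cluster from ZNF101 to ZNF254, the run from ZNF14 to ZNF714 held 11 neighbouring members called higher in T98. ZNF43 had values of 368.8 and 293.3 in T98 controls and 1 read over both U87 controls (difference 7.85 ± 1.03, adjusted p = 0.00116). ZNF90 had values of 188.7 and 181.3 in T98 controls and no read in U87 controls, at least 123-fold higher in T98. The silencers of transposable elements followed the cluster. ZNF93 had values of 309.1 and 218.3 in T98 controls and 3.20 and 5.75 in U87 controls (5.61 ± 0.75, adjusted p = 0.00127). ZNF91 had values of 509.4 and 286.6 in T98 controls and 38.9 and 6.56 in U87 controls (4.46 ± 0.80, adjusted p = 0.00458). ZNF101, the first member of the cluster, was expressed in both lines, with values of 201.4 and 149.0 in T98 controls and 152.0 and 136.5 in U87 controls (0.26 ± 0.33, adjusted p = 0.553).

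Some members of that cluster differed between lanes of 1 group. ZNF675 had values of 42.5 and 5.51 in U87 with LKB1 siRNA and 53.6 and 6.55 in U87 controls, each time higher on lane 2. ZNF254 and ZNF681 had 31 and 56 reads in the U87 LKB1 siRNA library on lane 2, and 1 and 2 in the one on lane 5. ZNF729 had a value of 397.1 in the T98 control on lane 2 and 1.71 in the T98 control on lane 4. These members were high in a single lane of a group, and the part of the lane in these differences was not tested. ZNF729 was not tested, because only that library reached a value of 10.

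The cluster from ZNF175 to ZNF331 split in a pair of blocks, described here after the values were seen. In its first 11 members, from ZNF175 to ZNF766, 2 were called, ZNF649 and ZNF613, both higher in T98, and 10 of the 11 were at 50 or more in all 4 control libraries. ZNF350 (ZBRK1), a KRAB repressor that binds BRCA1, had values of 141.8 and 150.0 in T98 controls and 86.6 and 123.2 in U87 controls (0.49 ± 0.43, adjusted p = 0.390). In the remaining 25 members, 20 of the 22 tested were called higher in T98, and the other two, ZNF528 and ZNF160, were not called. ZNF83 had values of 450.9 and 531.7 in T98 controls and 1 read over both U87 controls (8.42 ± 0.77, adjusted p = 2.53e-04). ZNF331, an imprinted gene at the far end, had values of 440.3 and 642.8 in T98 controls and 7.36 and 3.79 in U87 controls (6.40 ± 0.57, adjusted p = 2.25e-04). ZNF160, inside the second block, kept values of 145.8 and 373.4 in U87 controls against 502.1 and 571.5 in T98 controls (1.19 ± 0.53, adjusted p = 0.114).

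Among the 59 members from ZNF628 to ZNF446, 16 of the 19 called higher stood in 4 runs, the longest of them 6 members in a row, from ZNF583 to ZNF835. ZNF544 had the largest difference of the members called, with values of 1210 and 1086 in T98 controls and 7 reads over both U87 controls (8.66 ± 0.84, adjusted p = 3.09e-04). ZNF470 had values of 286.8 and 351.3 in T98 controls and no read in U87 controls, at least 213-fold higher in T98. Its neighbour ZNF471 had values of 92.8 and 132.0 in T98 controls and no read in any U87 library, at least 74.9-fold higher. Other members of the cluster were expressed in both lines and were not called. ZNF274, a KRAB protein that binds the 3′ ends of zinc finger genes and brings SETDB1 there, had values of 519.1 and 471.8 in T98 controls and 488.8 and 514.6 in U87 controls (-0.02 ± 0.23, adjusted p = 0.953). ZNF264 had values of 724.8 and 487.9 in T98 controls and 648.2 and 603.3 in U87 controls (-0.07 ± 0.25, adjusted p = 0.838).

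The 9 members lower in T98 were scattered, and for each of them every T98 library lay below every U87 library. This separation was not counted for genes outside the members. ZNF541, a gene of meiosis in the mouse testis, had values of 1.15 and 10.5 in T98 controls and 190.1 and 261.6 in U87 controls (-5.49 ± 1.04, adjusted p = 0.00590). ZNF536, a large repressor of neuronal differentiation that stands alone, had no read in any T98 library and values of 13.9 and 45.9 in U87 controls, at least 19.9-fold lower in T98 (adjusted p = 0.00603). ZNF233 had values of 7.51 and 12.4 in T98 controls and 166.8 and 187.1 in U87 controls (-4.06 ± 0.66, adjusted p = 0.00293). These 3 members differed by more than 3 on the log2 scale, and the other 6 by less. ZNF404 differed by -2.41, ZNF575 by -1.79, ZNF329 by -1.31, ZNF837 by -1.11 and ZNF490 by -1.10. ZNF524, the least of the 9, had values of 189.8 and 204.1 in T98 controls and 468.7 and 333.1 in U87 controls. The adjusted p of these 6 were 0.0171 to 0.0394.

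The 5 members with the highest mean value, not divided by length, were ZNF146, ZNF358, ZNF317, ZNF787 and ZNF507, and none was called between the lines. ZNF317 had values of 1428 and 1096 in T98 controls and 1426 and 1210 in U87 controls, and ZNF507 had 1669 and 1147 in T98 controls and 784.5 and 1065 in U87 controls. Divided by transcript length, ZNF146 led in T98 controls at 922 per kb, against 737 per kb in U87 controls, and ZNF358 led in U87 at 835 per kb, against 611 per kb in T98. ZNF224, a KRAB repressor of the aldolase A gene, had values of 261.2 and 335.2 in T98 controls and 188.0 and 295.1 in U87 controls (0.33 ± 0.37, adjusted p = 0.508). ZNF473, which acts in 3′ end processing of histone transcripts, was higher in T98, with values of 1016 and 976.9 in T98 controls and 455.0 and 445.8 in U87 controls (1.14 ± 0.21, adjusted p = 0.00550).

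The start regions of members used in T98 alone and of members used in both lines held like numbers of CG dinucleotides. RefSeq promoter windows (GRCh38.p14, 250 bases before to 50 after a start) were found for 206 of the 236 members, with 252 windows in all since some genes have several starts. The windows of members at 50 or more in T98 alone held a median of 20 CG dinucleotides, and those of members at 50 or more in both lines held 21. The median was 20 over all member windows, 23 over windows of zinc finger genes on other chromosomes, 19 over windows of other chromosome 19 genes and 14 over all 35116 windows. Which start is used in either line was not measured. The 4 windows below show 2 members switched between the lines, ZNF567 and ZNF83, and a member used in both lines from each of their clusters, ZNF146 and ZNF614, with every CG in capitals.
ZNF567: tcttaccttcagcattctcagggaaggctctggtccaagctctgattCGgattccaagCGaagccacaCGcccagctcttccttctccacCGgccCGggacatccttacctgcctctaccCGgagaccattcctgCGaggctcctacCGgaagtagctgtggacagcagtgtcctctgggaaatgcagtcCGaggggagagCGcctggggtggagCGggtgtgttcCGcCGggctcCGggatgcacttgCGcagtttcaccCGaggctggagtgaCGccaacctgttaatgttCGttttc
ZNF83: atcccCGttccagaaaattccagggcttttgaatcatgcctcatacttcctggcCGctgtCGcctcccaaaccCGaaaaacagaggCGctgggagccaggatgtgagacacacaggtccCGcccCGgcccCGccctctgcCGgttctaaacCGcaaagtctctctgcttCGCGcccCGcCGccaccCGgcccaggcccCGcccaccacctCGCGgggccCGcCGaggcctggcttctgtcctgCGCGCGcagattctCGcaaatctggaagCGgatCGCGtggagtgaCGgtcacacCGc
ZNF146: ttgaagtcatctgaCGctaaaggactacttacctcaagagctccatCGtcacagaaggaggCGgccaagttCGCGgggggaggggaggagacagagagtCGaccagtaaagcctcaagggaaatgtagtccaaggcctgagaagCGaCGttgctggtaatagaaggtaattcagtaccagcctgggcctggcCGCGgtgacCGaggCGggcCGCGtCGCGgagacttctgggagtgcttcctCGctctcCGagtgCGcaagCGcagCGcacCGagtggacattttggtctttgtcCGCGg
ZNF614: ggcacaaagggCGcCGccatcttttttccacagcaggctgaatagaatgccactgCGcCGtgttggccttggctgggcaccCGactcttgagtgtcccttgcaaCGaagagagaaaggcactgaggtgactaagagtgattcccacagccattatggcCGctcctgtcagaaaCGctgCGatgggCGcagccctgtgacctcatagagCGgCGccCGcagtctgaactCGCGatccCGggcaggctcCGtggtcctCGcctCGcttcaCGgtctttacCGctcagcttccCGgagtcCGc
These are chr19:36666684-36666983 on the plus strand for ZNF567 (18 CG), chr19:52690447-52690746 on the minus strand for ZNF83 (29 CG), chr19:36214856-36215155 on the plus strand for ZNF146 (24 CG) and chr19:52028330-52028629 on the minus strand for ZNF614 (23 CG), all on GRCh38.p14. For ZNF567 and ZNF83 the first listed of 2 windows is shown. ZNF614 had values of 547.9 and 550.6 in T98 controls and 409.7 and 520.3 in U87 controls (0.25 ± 0.25, adjusted p = 0.467).

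The member windows shared a short word more often than other windows. CCGGAAG, the core of ETS factor motifs, was present on either strand in 39.3% of member windows, 28.5% of windows of zinc finger genes on other chromosomes, 14.1% of windows of other chromosome 19 genes and 10.3% of all windows. It was chosen after 6 words had been searched. Windows with at least 15 CG held it in 38.7% of members and 17.9% of all. Members at 50 or more in T98 alone held it in 44.1% of windows and members at 50 or more in both lines in 41.5%. Members between these limits held it in 31.6% of 79 windows. By call, it was in 40.3% of 124 windows of members higher in T98 and 40.4% of 109 of members not called. Members called lower held it in 0 of 10 windows. In the printed windows it stands in ZNF567, as cCGgaag, and not in the other 3. A match describes these letters and is not a binding site.

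The line difference was also read from the LKB1 siRNA libraries. They had no part in the differences between controls, but they entered the filter and the estimate of spread behind the calls. Of the 112 members called higher in T98 controls, 111 were higher in T98 with LKB1 siRNA in both lane pairs, as were the 9 called lower in their direction. The same count was not made for called genes outside the members, so it is not known to be particular to them. The median difference of the 112 was 4.39 in LKB1 siRNA libraries and 4.83 in controls. Over all tested members it was 1.42 in LKB1 siRNA libraries, where all genes tested had 0.02. Within lane 2 alone, controls of T98 against U87 gave a median of 1.62 with 183 of 224 members above 0, and lane 4 of T98 against lane 5 of U87 gave 1.16 with 176 above 0. All 121 calls had the same sign in both lane pairs, but these pairs are the libraries that gave the calls, so this is no separate support. With a lane term, 154 members were called, 137 higher and 17 lower, against 63.3% of all genes tested. That fit compares the control levels on lane 2 as estimated from all 8 libraries.

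**Figure D4:**
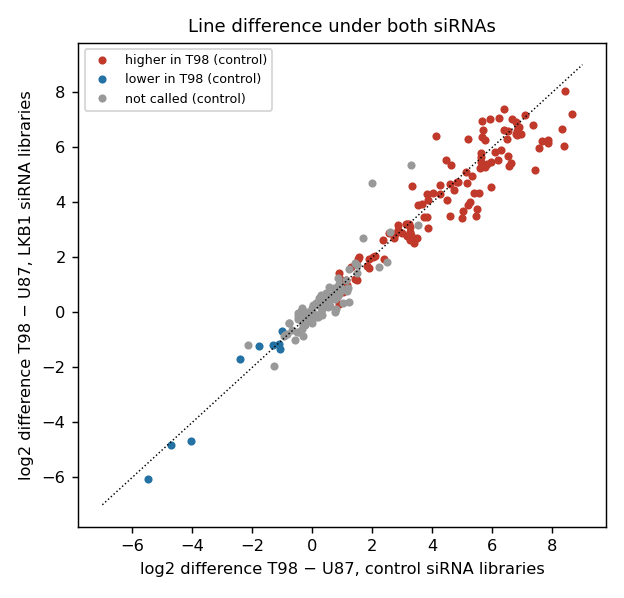
Log2 difference T98 minus U87 for each tested member in control siRNA libraries (horizontal axis) and in LKB1 siRNA libraries (vertical axis); red was called higher and blue lower in T98 controls, grey was not called, and the dotted line marks equal values. The points follow the line, with medians of 4.39 and 4.83 for the red points in LKB1 and control siRNA libraries.

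Genes of the machinery that KRAB proteins recruit were called between the lines about as often as all genes. Of 29 genes of the list tested, 10 were called (34.5%), against 37.7% of all genes, and all 10 were higher in T98 controls. The median difference over the list was 0.49, against 1.35 over the zinc finger genes. TRIM28 had values of 14467 and 12148 in T98 controls and 8088 and 7838 in U87 controls (0.74 ± 0.20, adjusted p = 0.0258). CBX1, the HP1 beta protein, differed by 1.20 ± 0.22 (adjusted p = 0.00560), and the DNA methyltransferases DNMT3A, DNMT3B and DNMT1 by 1.58, 1.08 and 0.74 (adjusted p of 0.0118 to 0.0213). CBX3, HDAC1, CHD4, EHMT2 and MPHOSPH8 were the other five called. SETDB1 was not called (0.75 ± 0.41, adjusted p = 0.191).

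Few of the members were called with LKB1 siRNA. The effect was read from LKB1 minus control libraries with a term for the lane within each line. In T98, 2 of 224 members were called (0.893%), against 15.8% of all genes tested (8.48% higher and 7.33% lower) and 13.3% of genes of the members' middle range of values. ZNF404 rose in T98, with values of 34.5 and 69.0 with LKB1 siRNA and 11.9 and 34.3 in controls, 1.23 ± 0.26 on the log2 scale (SE, adjusted p = 0.0247). ZNF302, a KRAB zinc finger gene, fell, with values of 336.6 and 703.1 with LKB1 siRNA and 772.9 and 907.6 in controls (-0.78 ± 0.21, adjusted p = 0.0483). Within lanes ZNF302 differed by -1.20 on lane 2 and -0.37 on lane 4. The median member effect in T98 was -0.02, and over all genes tested 0.02. The SE of an effect had a median of 0.25 over members, 0.24 over genes of the middle range and 0.17 over all genes tested.

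In U87, 8 of 224 members were called (3.57%), 7 of them higher with LKB1 siRNA, against 11.2% of all genes tested (5.29% higher and 5.91% lower) and 9.13% of genes of the members' middle range. ZNF302 fell here too, with values of 220.0 and 213.5 with LKB1 siRNA and 415.9 and 361.8 in controls (-0.84 ± 0.21, adjusted p = 0.0477). ZNF175, a KRAB protein known for repressing the HIV-1 promoter, rose, with values of 940.9 and 2803 with LKB1 siRNA and 527.0 and 1688 in controls (0.78 ± 0.14, adjusted p = 0.0129). ZNF460 rose, with values of 75.7 and 80.5 with LKB1 siRNA and 44.3 and 34.3 in controls (0.98 ± 0.25, adjusted p = 0.0453). ZNF175 differed more between lanes than between siRNAs, and the rise was of like size on both lanes, 0.84 and 0.73.

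The other 5 members called higher in U87 were among those nearly silent in that line, and rest on few reads. ZNF880 and ZNF808 each had 1 and 8 reads in U87 with LKB1 siRNA and none in controls. ZNF709 had 3 and 8 reads with LKB1 siRNA and 0 and 2 in controls, ZNF320 had 2 and 16 against 1 and 3, and ZNF761 had 3 and 17 against 1 and 6. Each stayed far under its T98 level: ZNF320, for example, had values of 3.12 and 13.8 in U87 with LKB1 siRNA and 546.9 and 584.8 in T98 controls. The median member effect in U87 was 0.07, and over all genes tested -0.00. By size alone, 26 of 224 members (11.6%) had an effect of at least 1 on the log2 scale in either direction in U87, against 7.17% of all genes tested and 10.1% of genes of the members' middle range. All 26 had a mean value under 50 over the 4 U87 libraries, 22 of them under 10, and 5 of the 26 were called. In T98, 5 members (2.23%) had an effect of that size, against 8.95% of all genes tested.

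**Figure D5:**
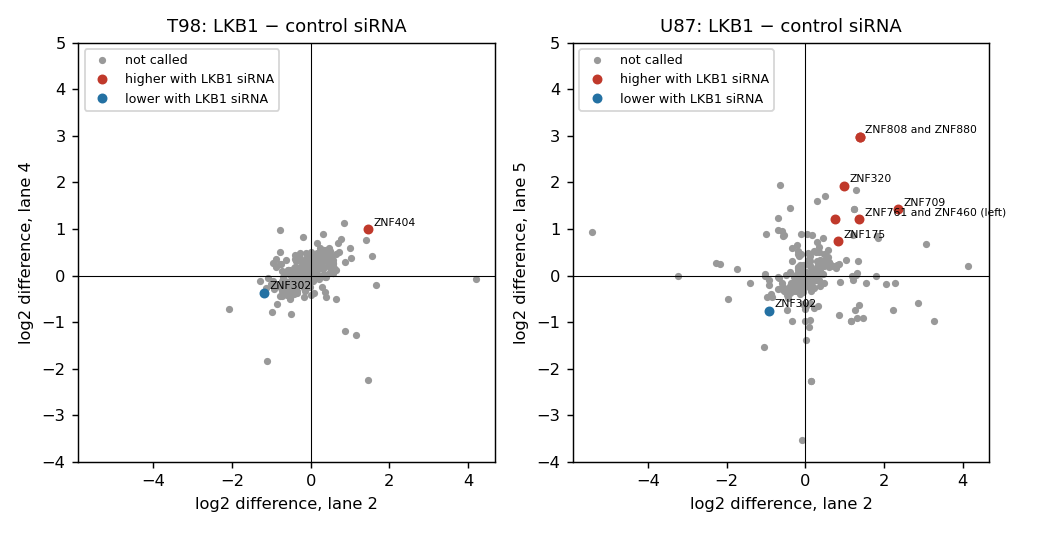
Log2 difference of LKB1 minus control siRNA for each tested member on lane 2 (horizontal axis) and on the other lane (vertical axis), in T98 (left) and U87 (right); red and blue members were called higher and lower, and grey were not called. Most points lie near 0 on both axes, and ZNF302 lies below 0 on every lane of both lines.

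Averaged over both lines, 20 of 224 members were called (8.93%), 13 higher and 7 lower with LKB1 siRNA, against 26.4% of all genes tested (13.2% in each direction) and 23.9% of genes of the members' middle range. ZNF302 fell by 0.81 ± 0.15 (adjusted p = 0.00897), with each LKB1 siRNA library below the control of its lane. ZNF426, ZNF615, ZNF266, ZNF181, ZNF805 and ZNF428 fell by 0.41 to 0.69 (adjusted p of 0.0215 to 0.0377). Of the fallen members, ZNF302 and ZNF181 are neighbours in the small cluster that ends at ZNF792. ZNF837, ZNF814, ZNF653, ZNF324B and ZNF865 rose by 0.38 to 0.55 (adjusted p of 0.0302 to 0.0452). The remaining 8 rises were those of ZNF404 and the 7 members already named in U87.

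The effects were not shown to differ between the lines. For the effect in T98 minus that in U87, 0 of 224 members were called by limma, against 0.476% of all genes tested. The unadjusted p was under 0.05 for 13 members (5.80%), against 14.8% of all genes tested. ZNF175 rose in U87 and its values in T98 were 358.0 and 480.4 with LKB1 siRNA and 345.4 and 435.8 in controls, yet the difference of the effects was -0.69 (adjusted p = 0.182).

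All of these LKB1 calls of members depend on the lane term. Without it 0 members passed in either line, in their mean or in the difference. Of all genes tested 0.028%, 0.056%, 1.86% and 0% were then called. The unadjusted p of limma was under 0.05 for 1 of 224 members in T98, 9 in U87, 5 in the mean and 2 in the difference. Over all 14282 genes tested it was under 0.05 for 1502, 1268, 2263 and 367. Fits without 1 library leave 1 library in a group. Without any 1 U87 library the U87 calls were lost, of members and of all genes alike. In T98 too the calls of members changed with those of all genes, so the change was not particular to the members.

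Of the 29 genes of the KRAB machinery, 1 was called with LKB1 siRNA in T98 (3.45%, against 15.8% of all genes tested), 4 in U87 (13.8%, against 11.2%) and 6 in the mean of both lines (20.7%, against 26.4%). DNMT1, the maintenance DNA methyltransferase, rose in both lines: its values were 6662 and 7115 in T98 with LKB1 siRNA against 2925 and 2842 in T98 controls (1.25 ± 0.14, adjusted p = 0.00475). In U87 they were 2664 and 2758 with LKB1 siRNA against 1472 and 2019 in controls (0.65 ± 0.14, adjusted p = 0.0236). UHRF1, which guides DNMT1 to replicated DNA, fell in U87 by 0.89 ± 0.11 (adjusted p = 0.00436) and in T98 differed by 0.32 ± 0.11 (adjusted p = 0.0938), and these effects differed (adjusted p = 0.0439). In U87 DNMT3B and CBX5 fell by 0.97 and 0.66 (adjusted p of 0.0118 and 0.0437). TRIM28 differed by 0.20 ± 0.12 in T98 (adjusted p = 0.283) and by 0.04 ± 0.12 in U87 (adjusted p = 0.864). Without the lane term none of these genes passed in T98, in U87 or in the difference of the effects. DNMT1 then had an adjusted p of 0.124 in T98 and 0.285 in U87, UHRF1 0.338 in U87, DNMT3B 0.175 and CBX5 0.343. DNMT1 alone still passed in the mean of both lines (0.95 ± 0.14, adjusted p = 0.0273).

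The 12 members not tested were ZNF556, ZNF560, ZNF257, ZNF676, ZNF729, ZNF99, ZNF114, ZNF610, ZNF534, ZNF677, ZNF582 and ZNF135. Of these, 6 were under 10 in every library: ZNF560, ZNF610, ZNF534, ZNF677, ZNF582 and ZNF135. ZNF560, ZNF677 and ZNF135 matched another gene exactly in all 8 libraries and are uncertain. ZNF99 reached a value of 42.2 in 1 library, T98 with LKB1 siRNA on lane 4, and had 2 reads over T98 controls and none in U87.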

How the data were processed

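Gene expression was measured in 8 RNA sequencing libraries of T98 and U87. Libraries were made with the TruSeq RNA V2 kit, per the labels' protocols, and the submitters' processing notes name TopHat2 2.0.8b, the build hg19 (GRCh37) and edgeR. The authors' deposited table gives a normalised signal for 18815 transcripts in each library. A symbol with several rows kept the one with the highest mean. Inverting the normalisation gave whole reads within 0.05 for 100% of values in every library. They served for read counts and 1 added alternative. Count tests were not run, because the deposited values are not counts. Reads carry no strand, so overlapping genes on opposite strands cannot be told apart.

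The test was limma-trend (R 4.3.3, limma 3.58.1). It ran on log2(value + 1), which understates changes of low genes, with all 8 libraries. They were two-sided and adjusted over 14282 genes with a threshold of 0.05. LKB1 effects had a term for lane within line (2 residual degrees of freedom) and T98 against U87 had none (4). Libraries of a line pair by the lane in the table's column names. Replicate numbers carry no pairing. Folds against a group without reads used 3 reads over its 2 libraries. Coordinates are from the deposited table, with starts counted from 1, except promoter windows.

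The members, lists, clusters and the lane term were chosen with earlier results of these data known. Named members were up to 10 rises and 10 falls per comparison past the threshold with a group mean of at least 50, members at 50 or more in 1 line and under 10 in the other, the member with the largest line difference of each cluster and the 5 with the highest mean. Members outside this rule were named after their values were seen. Among them were ZNF565, ZNF101, ZNF91, ZNF350, ZNF160, ZNF274, ZNF264, ZNF224, ZNF473, ZNF536, ZNF675, ZNF729 and ZNF607. The low members of U87 were named in its LKB1 comparison in the same way. The procedure was tested on simulated data.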

Additional observations from a re-analysis of the deposited data

How the results depend on the processing

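The 121 members called between the control libraries of the lines were 124 with a pseudocount of 5, 118 without a filter, 108 of 201 with a filter at 50, 120 with median of ratios scaling, 118 with voom on recovered reads (chosen after seeing the data) and 154 with a lane term as a replicate block. Of all genes tested 37.7%, 30.4%, 39.9%, 37.7%, 36.5% and 63.3% were called in these settings in turn, against 37.7% in the main fit. Leaving out 1 library lowered the number of members called, and that of all genes called with it. The split of higher and lower calls changed little (112 and 9 against 137 and 17 with the lane term). Without 1 library, the difference of 24 of the 103 members not called changed sign, and that of none of the 121 called. Calls were picked from these same libraries for a difference large against its spread, so this contrast follows largely from the choice. Of the members named for their level, ZNF146 ranged over -0.028 to 0.60, ZNF787 over -0.21 to 0.66, ZNF317 over -0.26 to 0.12 and ZNF358 over -0.92 to 0.14. ZNF274 ranged over -0.088 to 0.050 and ZNF264 over -0.36 to 0.21.

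The LKB1 calls were fragile. In T98, in U87 and in their mean 2, 8 and 20 members were called, against 15.8%, 11.2% and 26.4% of all genes tested. Without the lane term (no replicate block) they were 0, 0 and 0, against 0.028%, 0.056% and 1.86%. Without a filter they were 1, 5 and 11 of 235, against 10.3%, 7.83% and 19.6%. A pseudocount of 5 gave 4, 3 and 21, against 17.8%, 13.1% and 28.4%. With voom they were 5, 5 and 19, against 16.7%, 13.4% and 25.6%. Without 1 library they ranged over 0 to 13 in T98, 0 to 13 in U87 and 0 to 27 in the mean, and the 0 of the difference became 2 without T98 with LKB1 siRNA on lane 4 and 1 without the T98 control on lane 4. The cause was not tested. In such fits the spread comes largely from the other line. The count tests listed as alternatives were not run.

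Precision is limited by 2 libraries per group and, for members nearly silent in U87, by reads, down to none in any U87 library for 11 of them. Splitting clusters at 0.5 Mb gave 21 clusters, 10 of them of 5 or more members.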

Other observations

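Zinc finger genes of chromosome 19 that carry other names differed between the lines in both directions. Of a list of 23 such genes, 16 were tested and 7 were called (43.8%), 6 higher and 1 lower in T98, against 37.7% of all genes tested. The median log2 difference was 0.33, with 9 of 16 above 0. Within the cluster from ZNF565 to ZNF573, the 4 tested genes outside the name pattern, ZFP14, ZFP82, HKR1 and ZFP30, all zinc finger genes, were all called higher in T98 controls, with a median log2 difference of 7.16. ZFP82 had values of 159.9 and 151.9 in T98 controls and no read in any U87 library. ZFP28 and ZIK1, from the far end of the long arm, differed by 7.89 and 7.35, and ZSCAN18 by 4.88. MZF1, near the end of the long arm, was lower in T98 (-1.01, adjusted p = 0.0175), and ZFP112, ZSCAN22 and ZBTB45 were not called, at -0.10, -0.29 and -0.60.

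In the following clusters, tested genes outside the name pattern were called in both directions, or only lower in T98. Of the 18 tested neighbours from ZNF628 to ZNF446, which include ZFP28 and ZIK1, 5 were called higher and 3 lower, and of the 32 from ZNF557 to ZNF846, 3 were called higher and 7 lower, with medians of 0.08 and -0.38. From ZNF175 to ZNF331, 1 of 7 was called higher and 2 lower, with a median of -1.49. From ZNF575 to ZNF296, 3 of 21 were called higher and 4 lower, with a median of -0.17. From ZNF653 to ZNF791, 0 of 4 were called higher and 3 lower, with a median of -2.99.

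Lane scatter of the members was wider in U87 than in T98. The SD of the log2 difference between the libraries of a group was 0.59 and 0.63 in T98 with LKB1 and control siRNA, and 1.18 and 1.18 in U87 with LKB1 and control siRNA. Over all genes it was 0.86 to 0.89.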
